A study of Caenorhabditis elegans with 3 samples.

Results

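The major sperm protein (msp) genes of Caenorhabditis elegans were examined in whole L4 larvae after feeding RNAi. Members were all genes of the deposited gene tables whose name is msp- followed by digits, which gave 35 of 46135 genes. All 3 libraries came from the wild-type strain N2, grown from synchronized L1 larvae for 36 hours on bacteria carrying an RNAi clone. The clone targeted ham-3, swsn-2.2 or, as the control, gfp, a sequence that worms lack, and the libraries are labelled ham-3(RNAi), swsn-2.2(RNAi) and gfp(RNAi). Both targets encode variants of the same accessory subunit of SWI/SNF, a complex that remodels chromatin. Each group was 1 library of poly(A) RNA from a whole population, read in pairs of 73 bp, with no replicate. The growth temperature is given as 25 °C in one place of the record and 35 °C in another. The question is how gene expression at L4 differs when either subunit gene is targeted, here for the genes of the main sperm structural protein.

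Major sperm protein is the most abundant protein of nematode sperm, which crawl rather than swim. It polymerizes into filaments that push the pseudopod forward, taking the place that actin has in other crawling cells. It is packed into fibrous bodies in spermatocytes, and after its release from sperm it also acts as a signal that triggers oocyte maturation and contraction of gonadal sheath cells. The genes are transcribed in spermatocytes, and hermaphrodites make sperm during the L4 stage before they switch to oocytes.

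The library labelled ham-3 did not show a lowered target. The ham-3 gene reached 23.1 FPKM in the library labelled ham-3, 31.5 FPKM in the swsn-2.2 library and 19.3 FPKM in the gfp library. FPKM is the number of mapped fragments scaled to transcript length and to library size. The swsn-2.2 gene reached 37.8 FPKM in the library labelled ham-3 and 19.3 FPKM in the gfp library and was listed at 0 in the swsn-2.2 library. A listed 0 also occurred for genes that no clone targeted. In gfp it stood for dpy-7 (55.6 and 48.5 FPKM under ham-3 and swsn-2.2 RNAi by label) and rig-6 (33.1 and 33.5 FPKM). In the swsn-2.2 library it stood for ges-1, which had 29.7 FPKM in gfp. Whether the 0 of swsn-2.2 reflects lowered RNA was not tested. Depth inferred from the spacing of low FPKM values was about 31160000 fragments in the library labelled ham-3, 30820000 in the swsn-2.2 library and 19860000 in the gfp library. The adult cuticle collagen gene col-19 had 876, 1182 and 884 FPKM, listed in that order of libraries, although the label of each is L4. With 1 library per group, an effect of RNAi and a difference in larval timing cannot be told apart, and no test across animals was possible.

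The 35 msp genes lay on chromosomes II (15 genes) and IV (20 genes). RefSeq (assembly WBcel235) annotates 31 as protein coding and 4, msp-37, msp-42, msp-52 and msp-71, as pseudogenes. All 35 have a single annotated exon, and 28 of the coding genes have the same coding length of 384 bases, which encodes 127 amino acids. The other 3 coding genes are shorter, with msp-58 and msp-74 at 234 bases and msp-32 at 360 bases. The strands were mixed, with 20 genes on the plus strand and 15 on the minus strand. Grouping members less than 300 kb apart gave 4 blocks. The left block of chromosome II (4785861 to 5200222) held 12 members and the right block (5797065 to 5810342) held 3. The left block of chromosome IV (5055593 to 5316944) held 10 members and the right block (9688982 to 10144175) held 10. These coordinates are those of the deposited tables, whose chromosome matched WBcel235 for all 35 members and whose span held the annotated gene, within 1 base, for 34. The exception was msp-52, whose annotated pseudogene extends beyond the span in the tables.

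The copies are near-identical, so a read often matches several of them, and how such reads were assigned is not given in the sources used here. Values of single copies are therefore uncertain, while sums over copies depend less on the assignment. Members also lie within other genes. The members msp-31, msp-33, msp-38 and msp-45 are located in introns of aagr-2, gst-9, dhs-12 and srb-13. The pseudogene msp-37 lies entirely within exons of dhs-12 on the same strand over its 181 bases, so reads of dhs-12 (79.5, 84.2 and 79.9 FPKM in the libraries labelled ham-3(RNAi), swsn-2.2(RNAi) and gfp(RNAi)) cannot be told apart from its own.

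All 35 members were above 0 in every library, and all passed the filter of a mean of at least 1 FPKM over a pair. Their summed level was 20626 FPKM in the library labelled ham-3, 19412 FPKM in the swsn-2.2 library and 18351 FPKM in the gfp library. These sums were 1.95%, 1.77% and 1.71% of all FPKM in the same order. On the deposited scale the family level was highest in the library labelled ham-3 and lowest in the gfp library. Scaled to the upper quartile, the log2 ratio of the swsn-2.2 sum over the gfp sum was -0.013, so the lowest library depends on the scaling. In whole-worm RNA, more sperm-forming cells and more msp RNA per cell cannot be told apart. Among all genes, 24 members were within the 500 highest FPKM values in each of the 3 libraries.

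**Figure D1:**
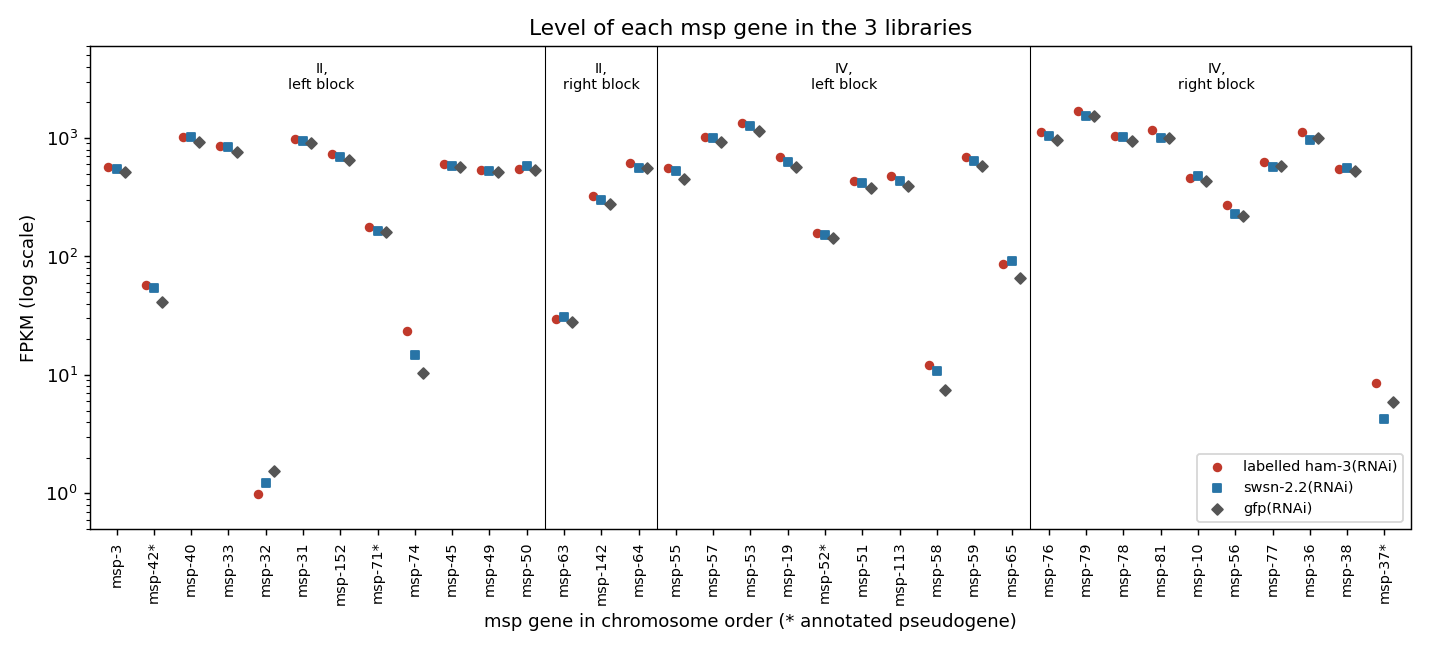
FPKM of each of the 35 msp genes (log axis) in the library labelled ham-3, the swsn-2.2 library and the gfp library, in chromosome order, with lines between the 4 blocks and asterisks at annotated pseudogenes. Most copies sit between 100 FPKM and the 1679 FPKM of msp-79 with the 3 libraries close together, and 7 copies have means under 100 FPKM.

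The level differed far more between copies than between libraries. Mean FPKM over the libraries ranged from 1.25 for msp-32 to 1577 for msp-79. The highest copy, msp-79 (T13F2.10; chromosome IV, 9766745 to 9767187, minus strand), reached 1679 FPKM in the library labelled ham-3, 1528 FPKM in the swsn-2.2 library and 1525 FPKM in the gfp library. It ranked 84th, 103rd and 111th among all genes in the same order. Next came msp-53 (R13H9.4; chromosome IV, 5064641 to 5065153, minus strand), at 1338, 1269 and 1146 FPKM. The further copies at the top were msp-81 (1169, 993 and 996 FPKM), msp-76 (1126, 1049 and 972 FPKM), msp-36 (1116, 971 and 1006 FPKM) and msp-78 (1040, 1014 and 939 FPKM). All 6 were highest in the library labelled ham-3, while msp-81 and msp-36 were lower in the swsn-2.2 library than in the gfp library. Together these 6 copies made up 36.2%, 35.1% and 35.9% of the summed msp FPKM. The order of copies by level was nearly the same in the library labelled ham-3 and the swsn-2.2 library (Spearman's rho 0.99 over 35 genes, a description of copies that share reads and annotated lengths).

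In the library labelled ham-3, set against gfp, nearly every msp gene was slightly higher. The summed FPKM was 1.12-fold the gfp sum, a log2 ratio of 0.17 (95% counting interval 0.16 to 0.18). The interval is an exact conditional binomial (Clopper-Pearson) interval on inferred fragments and covers counting error only, not the spread between cultures. For single copies such intervals are too narrow, because copies share reads. Of 35 members, 34 had a log2 ratio of FPKM + 1 above 0, against 56.1% of the 14683 genes kept in that comparison. The median member was at 0.16, against 0.03 for all genes kept, and 25.6% of all genes lay above the median member. The differences were small in size. On the same scale 2 members were at least 1.5-fold higher, against 3.69% of all genes, and 0 members were at least 1.5-fold lower, against 4.01% of all genes. Leaving out genes listed at 0 in a library of the pair, a choice made after seeing the data, took the backgrounds to 55.9% above 0, 1.64% higher and 2.85% lower.

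The 2 members past 1.5-fold were weakly expressed. The short gene msp-74 (F09C12.7; chromosome II, 5115102 to 5115335, minus strand) reached 23.6 FPKM in the library labelled ham-3, 14.7 FPKM in the swsn-2.2 library and 10.3 FPKM in the gfp library. Its log2 ratio over gfp was 1.12 in the library labelled ham-3. The other was msp-58 (ZK354.10; chromosome IV, 5308464 to 5308825, plus strand), at 12.1, 10.8 and 7.45 FPKM in the same order. Its log2 ratio was 0.63, and the ratio of FPKM itself had a counting interval of 0.06 to 1.40 from about 72 and 28 inferred fragments. The pseudogene msp-37 followed with a log2 ratio of 0.48 (8.60, 4.28 and 5.90 FPKM), although its reads overlap those of dhs-12. The only member below gfp was msp-32 (R05F9.3; chromosome II, 4898616 to 4899188, plus strand), at 0.988, 1.22 and 1.55 FPKM. Its log2 ratio of -0.36 rested on about 12 inferred fragments in each of the 2 libraries, with a counting interval of the FPKM ratio from -1.93 to 0.63. Among abundant copies the ratios closest to 0 were those of msp-50 (0.04; 553 and 537 FPKM in the library labelled ham-3 and in gfp) and msp-38 (0.05; 545 and 526 FPKM).

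Split by level, a choice made after seeing the data, the 28 members with a mean of at least 100 FPKM all exceeded gfp in the library labelled ham-3, with log2 ratios from 0.04 to 0.33. Of all 1617 genes at that level 46.9% were above 0. The median of these members was 0.15, and that of all genes at that level was -0.01. The 7 members under 100 FPKM ranged from -0.36 to 1.12, with a median of 0.46. They added up to 219 FPKM in the library labelled ham-3 and 160 FPKM in the gfp library, so they contributed little to the family sum.

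In the swsn-2.2 library the msp genes stood close to where the median gene stood. The summed FPKM was 1.06-fold the gfp sum, a log2 ratio of 0.08 (95% counting interval 0.07 to 0.09), and the median over all genes kept was also 0.08. Scaling to the upper quartile turned this log2 ratio to -0.01, so no direction can be given for the sum. Of 35 members, 29 were above 0, against 65.5% of the 14713 genes kept. Counted against the median of all genes instead of 0, 21 of 35 members were above it. The median member was at 0.11. At 1.5-fold, 0 members were higher and 0 lower, against 4.14% and 2.54% of all genes. Without genes listed at 0 the backgrounds were 65.6% above 0, 2.33% higher and 1.45% lower.

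The 3 members with the highest ratios in the swsn-2.2 library had means under 100 FPKM. The log2 ratio was 0.48 for msp-58, 0.48 for msp-65 and 0.47 for msp-74. The copy msp-65 (ZK354.1; chromosome IV, 5316488 to 5316944, plus strand), of the usual coding length, reached 86.7 FPKM in the library labelled ham-3, 91.3 FPKM in the swsn-2.2 library and 65.2 FPKM in the gfp library. Its counting interval was 0.31 to 0.66 for the swsn-2.2 library over gfp, from about 836 and 372 inferred fragments. At the other end were msp-37 (-0.39), msp-32 (-0.20, counting interval of the FPKM ratio -1.43 to 0.96) and the abundant msp-36 (-0.05). Among the 28 members with a mean of at least 100 FPKM, 24 were above 0 (59.3% of all 1615 genes at that level), with ratios from -0.05 to 0.20.

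The authors' deposited table, made with Cuffdiff, gives a p-value per gene from the same single libraries. At an unadjusted p under 0.05, the authors' deposited table holds 8 of 35 members as higher in the library labelled ham-3, against 5.11% of 13651 genes with a test, and 0 members as lower, against 6.18%. For the swsn-2.2 library it holds 2 members as higher, against 9.63% of 13701 genes, and 0 as lower, against 4.5%. The 8 members are named after their values were seen. By the authors' deposited table their p-values were 0.0056 for msp-74, 0.016 for msp-65, 0.018 for msp-56, 0.024 for msp-42, 0.026 for msp-55, 0.031 for msp-113, 0.036 for msp-58 and 0.047 for msp-19. Of these, msp-65 (p = 0.0019) and msp-42 (p = 0.036) were also under 0.05 for the swsn-2.2 library in the authors' deposited table. The authors' deposited lists of changed genes hold msp-74 as higher in the library labelled ham-3 (q = 0.111) and msp-65 as higher in the swsn-2.2 library (q = 0.0503), and 0 members as lower. Copies share reads and both comparisons share the gfp library, so these p-values are not independent of each other.

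**Figure D2:**
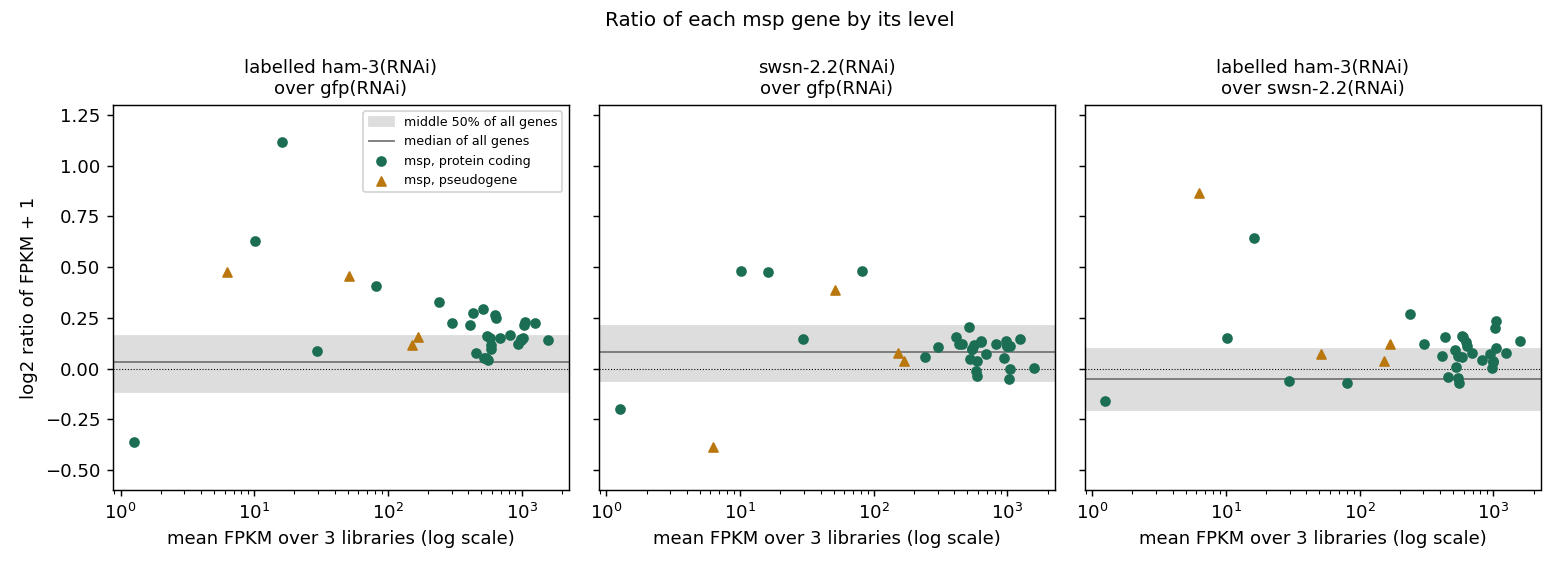
Log2 ratio of FPKM + 1 of each msp gene against its mean FPKM (log axis) for the library labelled ham-3 over gfp, the swsn-2.2 library over gfp, and the library labelled ham-3 over the swsn-2.2 library. The grey band is the middle 50% of all genes kept and the grey line their median. Copies above 100 FPKM form a narrow group above the line in the left panel and around it in the middle panel. In the right panel they lie above the line (-0.05) except msp-50 (-0.07). Weak copies scatter widely.

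Set directly against the swsn-2.2 library, the library labelled ham-3 had higher msp levels although most other genes were lower. The log2 ratio of the sums was 0.09 (95% counting interval 0.08 to 0.10), while the median of all 14738 genes kept was -0.05. Of 35 members, 29 were above 0, against 40.3% of all genes. At 1.5-fold, 2 members were higher, against 2.93% of all genes, and 0 lower, against 4.66%. Those 2 were msp-37 (0.86) and msp-74 (0.64), both with spans under 300 bases, too short for a fragment estimate. Without genes listed at 0 the backgrounds were 39.9% above 0, 1.45% higher and 3.4% lower. Of the 28 members with a mean of at least 100 FPKM 25 were above 0, against 38.6% of all genes at that level. Among abundant copies the ratio was 0.27 for msp-56, with 274 FPKM in the library labelled ham-3 and 227 FPKM in the swsn-2.2 library. It was 0.24 for msp-81 (1169 and 993 FPKM) and 0.20 for msp-36 (1116 and 971 FPKM). Copies on the other side were msp-50 at -0.07 (553 and 582 FPKM) and msp-38 at -0.05 (545 and 563 FPKM). On the deposited scale the gfp library was the lowest of the 3 for 29 members, and 24 of 35 members followed the order of the family sum in full. That order was also found for 42 of 204 genes within 20 kb of a member. The share of all genes was not computed for either count. In the comparisons with gfp, 56.1% (library labelled ham-3) and 65.5% (swsn-2.2 library) of all genes kept were above 0. Both ratios of the sums over gfp share the gfp library, so they are not independent of each other.

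By position, the left block of chromosome IV stood furthest above gfp in both RNAi libraries. Its 10 members summed to 5477 FPKM in the library labelled ham-3, 5172 FPKM in the swsn-2.2 library and 4677 FPKM in the gfp library. The log2 ratios of these sums over gfp were 0.23 for the library labelled ham-3 and 0.14 for the swsn-2.2 library. All 10 members of that block were above 0 in both comparisons, against 56.1% and 65.5% of all genes kept. Among its abundant copies, msp-55 was at 558, 524 and 455 FPKM, msp-19 at 688, 628 and 574 FPKM, and msp-113 at 479, 431 and 396 FPKM, in the order ham-3(RNAi), swsn-2.2(RNAi) and gfp(RNAi) by label. The copies msp-59 (693, 641 and 583 FPKM), msp-51 (436, 418 and 375 FPKM) and msp-57 (1027, 1006 and 931 FPKM) kept the same order. The pseudogene msp-52 of this block was at 156, 152 and 144 FPKM.

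The right block of chromosome IV carried the largest share of msp FPKM and stood above gfp mainly in the library labelled ham-3. Its sums were 8051 FPKM in the library labelled ham-3, 7392 FPKM in the swsn-2.2 library and 7208 FPKM in the gfp library, with log2 ratios over gfp of 0.16 and 0.04. Members above 0 were 10 of 10 in the library labelled ham-3, against 56.1% of all genes kept. In the swsn-2.2 library they were 6 of 10, against 65.5%, and the ratio of 0.04 was below the all-gene median of 0.08. Besides the highest copies given above, this block held msp-77 (632, 568 and 582 FPKM), msp-10 (461, 475 and 438 FPKM) and msp-56 (274, 227 and 218 FPKM).

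On chromosome II, the left block summed to 6122 FPKM in the library labelled ham-3, 5964 FPKM in the swsn-2.2 library and 5601 FPKM in the gfp library. The log2 ratios over gfp were 0.13 and 0.09. Its highest copies were msp-40 (1014, 1012 and 921 FPKM), msp-31 (989, 942 and 908 FPKM) and msp-33 (859, 833 and 765 FPKM). Between the RNAi libraries the counting interval included 0 for msp-40 and msp-33, and not for msp-31. Copies of middle level were msp-152 (730, 692 and 658 FPKM), msp-45 (608, 585 and 569 FPKM), msp-3 (575, 552 and 515 FPKM) and msp-49 (533, 531 and 514 FPKM). The pseudogenes msp-71 (178, 164 and 160 FPKM) and msp-42 (57.3, 54.6 and 41.5 FPKM) were lower in level. The right block was small, at 975, 885 and 865 FPKM, with msp-64 (621, 555 and 559 FPKM), msp-142 (325, 299 and 278 FPKM) and msp-63 (29.8, 31.1 and 28.0 FPKM).

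Among copies of at least 100 FPKM, log2 ratios in the library labelled ham-3 ran from 0.11 to 0.29 (median 0.24) for the 8 in the left block of chromosome IV. They ran from 0.05 to 0.33 (median 0.15) for the 9 in its right block and from 0.04 to 0.17 (median 0.14) for the 9 in the left block of chromosome II. The ranges overlap between blocks. The blocks were set by position with the values already known, copies within them share reads, and no test of the difference was made. The 4 pseudogenes summed to 400.5, 375 and 352 FPKM in the order ham-3(RNAi), swsn-2.2(RNAi) and gfp(RNAi) by label. Their log2 ratios over gfp, 0.19 and 0.09, were near those of the 31 coding members, 0.17 and 0.08. Reads of coding copies assigned to pseudogenes could not be separated here.

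**Figure D3:**
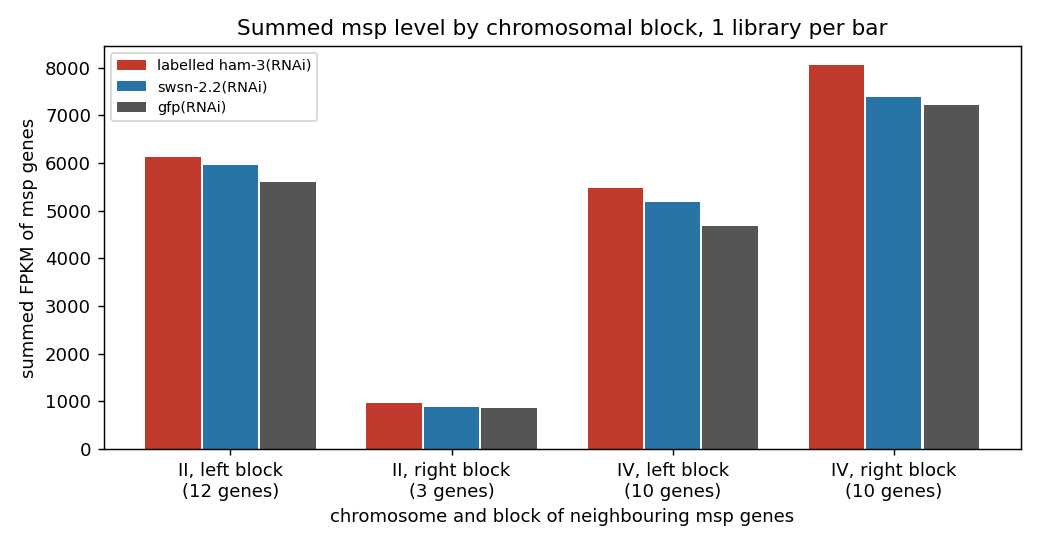
Summed FPKM of the msp genes in each of the 4 chromosomal blocks, with bars from left to right for the library labelled ham-3, the swsn-2.2 library and the gfp library (1 library per bar, so no error bars). In all 4 blocks the bar of the library labelled ham-3 is the highest and that of gfp the lowest, with sums between 865 and 8051 FPKM.

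Relatives of the msp genes had medians close to those of all genes in both RNAi libraries. These 17 genes encode proteins with an MSP domain under other names, chiefly the ssp and msd genes. They summed to 5620 FPKM in the library labelled ham-3, 5652 FPKM in the swsn-2.2 library and 5463 FPKM in the gfp library. For the library labelled ham-3, 10 of 17 had ratios above 0, against 55.9% of all genes above 0 FPKM in both libraries. Their median was 0.05, and 1 was at least 1.5-fold higher (1.64% of those genes) with 0 lower (2.85%). In the swsn-2.2 library 13 of 17 had ratios above 0, against 65.6%, with a median of 0.08. There 0 passed 1.5-fold in either direction, against 2.33% higher and 1.45% lower. The most abundant was ssp-9 (1598, 1444 and 1427 FPKM). The sperm genes msd-1 (1181, 1261 and 1214 FPKM) and msd-4 (646, 733 and 693 FPKM) were lowest in the library labelled ham-3, unlike most msp genes. The member past 1.5-fold was ssp-37, at 10.8, 7.86 and 6.38 FPKM. Another far from gfp was ssp-33 in the swsn-2.2 library, at 71.5, 84.2 and 64.4 FPKM in the same order, a log2 ratio of 0.38 over gfp. Beside it stood ssp-36 (36.8, 43.6 and 33.9 FPKM), with 0.36 in the same comparison, while ssp-19 (77.2, 65.5 and 59.8 FPKM) had 0.36 in the library labelled ham-3. The sum of msp FPKM was 3.67 times the sum of these relatives in the library labelled ham-3, 3.43 times in the swsn-2.2 library and 3.36 times in the gfp library.

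Genes that regulate the sperm fate of germ cells, in either direction, or switch on sperm genes were found for 10 of 11 listed names. In the library labelled ham-3 8 of 10 had ratios above 0 (median 0.13), against 55.9% of all genes above 0 FPKM in both libraries. In the swsn-2.2 library 9 of 10 did (median 0.11), against 65.6%, and 0 passed 1.5-fold in either library. The GATA factor gene elt-1, whose product binds msp promoters, reached 9.25 FPKM in the library labelled ham-3, 8.70 FPKM in the swsn-2.2 library and 8.66 FPKM in the gfp library. The sperm fate gene fog-3 was at 3.95, 2.77 and 2.74 FPKM and fog-1 at 5.90, 5.49 and 6.31 FPKM. The translational repressor gene gld-1, needed in the hermaphrodite germline for sperm fate and for oocyte progression, was at 192, 179 and 176 FPKM. The sex determination genes fem-1 (38.6, 37.4 and 34.9 FPKM) and fem-2 (38.2, 39.01 and 34.7 FPKM), which promote male fate, were both lowest in gfp. Also lowest in gfp were tra-2 (9.73, 9.40 and 8.52 FPKM), which does not share that role, and fog-2 (15.3, 17.9 and 14.5 FPKM), which acts with gld-1. The terminal sex determination gene tra-1 was at 12.04, 14.1 and 10.6 FPKM, with 0.38 as the log2 ratio for the swsn-2.2 library.

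Genes for the fibrous body, its membranous organelle and MSP filament dynamics were found for 12 of 14 names, and 11 of them were above 0 in all libraries. The exception was fer-1, needed for fusion of membranous organelles, at 5.53 and 3.49 FPKM in the library labelled ham-3 and the swsn-2.2 library and listed at 0 in the gfp library. Without it, 10 of 11 were above 0 in the library labelled ham-3 (median 0.16) and 7 of 11 in the swsn-2.2 library (median 0.10). At 1.5-fold 0 of the 11 passed in either. The sperm phosphatase genes gsp-4 (117, 105 and 109 FPKM) and gsp-3 (116, 91.8 and 103 FPKM) were lowest in the swsn-2.2 library. The kinase gene spe-6, required for MSP assembly into fibrous bodies, was at 33.2, 33.6 and 29.1 FPKM. The presenilin gene spe-4 of the membranous organelle was at 28.4, 26.2 and 24.4 FPKM and spe-26 at 30.2, 34.9 and 30.1 FPKM. The sperm myosin gene spe-15 was at 43.7, 34.6 and 36.5 FPKM, a log2 ratio of 0.25 in the library labelled ham-3.

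Genes for spermatid activation and the sperm surface were found for 13 of 19 names. In the library labelled ham-3 10 of 13 had ratios above 0 (median 0.08), against 55.9% of all genes above 0 FPKM in both libraries. In the swsn-2.2 library 8 of 12 kept did (median 0.07), against 65.6%, and 0 passed 1.5-fold in either library. The secreted inhibitor gene of sperm activation swm-1 was at 91.7, 107 and 122 FPKM, log2 ratios of -0.41 and -0.19 over gfp. The paternal-effect gene spe-11 was at 74.4, 81.8 and 70.5 FPKM. The calcium channel gene spe-41 was at 18.9, 17.3 and 18.6 FPKM. The activation gene spe-27 was at 4.12, 3.28 and 2.78 FPKM, a log2 ratio of 0.44 in the library labelled ham-3.

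Genes that receive the MSP signal in sheath cells and oocytes were found for 22 of 23 names, and 19 were above 0, with kin-1, lin-41 and vav-1 listed at 0 in all libraries. Of the 19, 11 were above 0 in ratio in the library labelled ham-3 (median 0.01), against 55.9% of all genes above 0 FPKM in both libraries. At 1.5-fold 2 were lower (2.85% of those genes) and 0 higher (1.64%). In the swsn-2.2 library 13 of 19 were above 0 (median 0.06), against 65.6%, with 0 past 1.5-fold. The 2 lower in the library labelled ham-3 were the sheath gap junction genes inx-8 (33.0, 51.6 and 54.01 FPKM) and inx-9 (11.96, 19.7 and 20.6 FPKM). The most abundant were unc-43 (135, 138 and 152 FPKM), which encodes a calcium-dependent kinase, dab-1 (131, 126 and 138 FPKM) and the G protein gene goa-1 (87.8, 83.3 and 80.1 FPKM). The ephrin gene efn-3 was at 5.02, 7.40 and 5.56 FPKM. The MSP receptor gene vab-1, an Eph receptor, was at 16.01, 15.3 and 14.6 FPKM. The sheath cell factor gene ceh-18 was at 18.6, 24.5 and 18.5 FPKM, with 0.39 as the log2 ratio for the swsn-2.2 library.

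**Figure D4:**
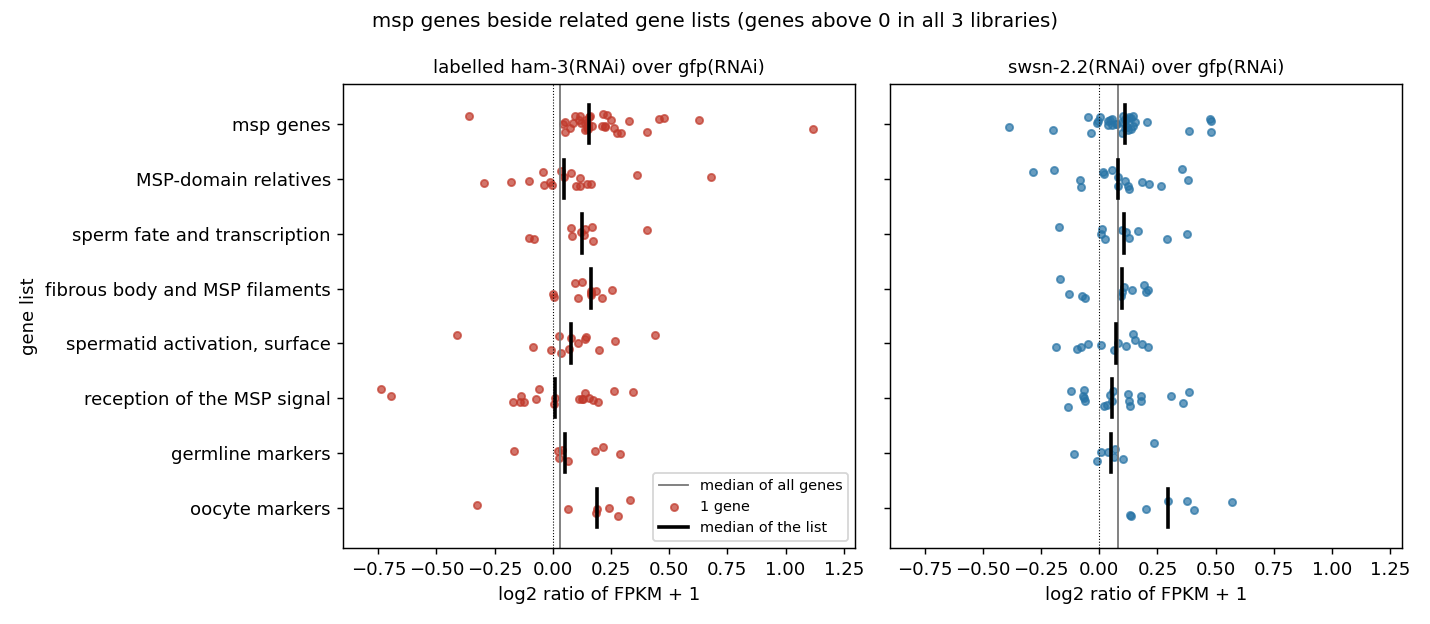
Log2 ratio of FPKM + 1 over gfp for each gene (points) of the msp family and 7 related lists, for the library labelled ham-3 and the swsn-2.2 library, with a black bar at the median of each list and a grey line at the median of all genes. Only genes above 0 in all 3 libraries are drawn. In the left panel the msp median (0.16) lies right of the grey line (0.03), and in the right panel it (0.11) lies close to the line (0.08).

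Sums of markers of other cells differed between libraries, some in other directions than the msp genes. The 7 oocyte markers above 0 in all libraries summed to 384 FPKM in the library labelled ham-3, 494 FPKM in the swsn-2.2 library and 375 FPKM in the gfp library, with medians of 0.19 and 0.29 over gfp. Of these 7, 6 were above 0 in the library labelled ham-3 and 7 in the swsn-2.2 library. The most abundant of them, perm-2, was at 119, 221 and 149 FPKM. The eighth, egg-1, had 68.3 FPKM in the library labelled ham-3 and listed at 0 in the others. The 8 markers of the mitotic and meiotic germline summed to 689, 689 and 672 FPKM, with medians of 0.05 and 0.05 over gfp. Spermatid markers other than fer-1 (5 of 6) summed to 313, 284 and 289 FPKM, with medians of 0.09 and 0.01. Markers of the intestine, where yolk protein is made, were also unequal, with the yolk protein gene vit-2 at 535, 658 and 449 FPKM and vit-5 at 179, 276 and 112 FPKM. The intestinal factor gene elt-2 was at 14.3, 16.5 and 12.9 FPKM, while the esterase gene ges-1 was at 29.7 FPKM in gfp and listed at 0 in the others. Body wall muscle was lowest in the swsn-2.2 library, with unc-54 and myo-3, which encode myosin heavy chains, summing to 600.01, 487 and 589 FPKM. Somatic gonad and spermatheca markers summed to 26.4, 34.7 and 28.9 FPKM over the 4 of 5 above 0, with fln-1 listed at 0 in all libraries. Hypodermis markers summed to 1105, 1394 and 1133 FPKM over col-19 and rol-6. The sum was mostly col-19, highest in the swsn-2.2 library, while rol-6 was lowest there (228, 213 and 249 FPKM). The third, dpy-7, was at 55.6 and 48.5 FPKM in the library labelled ham-3 and the swsn-2.2 library and listed at 0 in gfp. The part of these markers in the msp ratios was not tested.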

How the data were processed

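The authors made FPKM values with Cufflinks and log2 fold changes and p-values with Cuffdiff, per the submitters' processing notes; versions are not recorded there. The aligner was not given in the sources used here, nor was the build. The deposited gene tables hold FPKM, log2 fold and p-value columns, and q-values stand only in the authors' deposited lists. The gfp values differed for 0 genes between both gene tables, so both hold the same control values, and 0 per-sample columns were unmapped. This does not show that the 3 libraries are equally scaled. The upper quartile of FPKM over genes above 0 in all libraries was 33.9, 35.9 and 33.6 in the libraries labelled ham-3(RNAi), swsn-2.2(RNAi) and gfp(RNAi). Members and gene lists were chosen with earlier results of these data known.

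Ratios were log2 of FPKM + 1, over genes with a mean of at least 1 FPKM in the pair. A difference of at least 1.5-fold was counted. Fragment totals came from 182, 184 and 157 genes (libraries labelled ham-3(RNAi), swsn-2.2(RNAi) and gfp(RNAi)) with 1 transcript, FPKM up to 0.3 and length of at least 500 bp, of which 89.6%, 86.4% and 88.5% gave fragments within 0.1 of a whole number. Intervals at 95% were computed for members spanning at least 300 bp, with a length offset of 160 or 170 bp. PCR copies are not independent molecules, so intervals cover counting error only. Gene copies that share reads make the intervals of single copies too narrow.

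Named members were the 6 highest and 3 lowest by mean FPKM and the 3 highest and lowest ratios per comparison, and other members were named after their values were seen. Of the 5 lists of genes related to msp function, the 3 most abundant and the 2 furthest from gfp in each gfp comparison were named. Marker lists are given by their sums, and the markers and neighbours named were chosen after their values were seen. Python 3.11.15, pandas 2.3.3 and SciPy 1.17.1 were used, and the steps were tested on simulated data. Coding and promoter sequences of the members were not used here.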

Additional observations from a re-analysis of the deposited data

How the results depend on the processing

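No paired analysis was possible because each group is 1 library. The first shifts follow from how each scaling is built. With ratios centred on the median gene, the log2 ratio of summed msp FPKM was 0.14 for the library labelled ham-3 over gfp, 0.0017 for the swsn-2.2 library over gfp and 0.14 for the library labelled ham-3 over the swsn-2.2 library. The median member was then at 0.13, 0.031 and 0.13. Scaling to the upper quartile gave sums at -0.013 for the swsn-2.2 library over gfp, a reversal, and 0.17 between the RNAi libraries, with medians of 0.016 and 0.16. Under either scaling the number of members above 0 in the swsn-2.2 library was 21, and in the library labelled ham-3 it was 34. At a pseudocount of 0.1 FPKM 1 member (msp-32) was at least 1.5-fold lower in the library labelled ham-3. At 5 FPKM 1 member was at least 1.5-fold higher there, and 0 between the RNAi libraries. With protein-coding members only, 1 was at least 1.5-fold higher between the RNAi libraries. Of 150 recomputed values, 136 stayed within 1.5-fold of the count or within the counting error of the ratio. That number overstates stability. Dropping the filter or the genes listed at 0 could not move the members, because all passed the filter and were above 0. Summing transcripts per gene also returned the main values. The 1.5-fold limit counts the fall from 29 to 21 members above 0 in the swsn-2.2 library as unmoved. Settings without genes listed at 0 and with coding members only were chosen after seeing the data. Depth limits the weak copies, such as msp-32 with about 12 fragments in gfp.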

Other observations

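Genes next to the msp copies were examined as a description, with no test. Of 478 other genes of the tables within 20 kb of a member, 204 were above 0 in all libraries. These summed to 16712 FPKM in the library labelled ham-3, 16550 FPKM in the swsn-2.2 library and 16280 FPKM in the gfp library. Of the 204, 183 passed the filter on low values in the comparison of the library labelled ham-3 with gfp. Their median log2 ratio was 0.08 in the library labelled ham-3, between the median of all genes (0.03) and that of the msp genes (0.16). Ratios were above 0 for 129 and below for 54, against 55.9% above 0 of all genes above 0 FPKM in both libraries. In the swsn-2.2 library their median was 0.12, above that of all genes (0.08) and slightly above that of the msp genes (0.11). There 135 of 184 were above 0, against 65.6%. The 4 most abundant neighbours, chosen after their values were seen, were W08D2.9 (2742, 2725 and 2828 FPKM in the libraries labelled ham-3(RNAi), swsn-2.2(RNAi) and gfp(RNAi)), the collagen gene col-73 (2262, 1971 and 2218 FPKM), nspd-2 (742, 822 and 803 FPKM) and Y59E9AR.7 (742, 720 and 670.1 FPKM). Of these, Y59E9AR.7 alone had the order of the msp sums. Over all 204 neighbours above 0, 42 had that order, and 24 of the 35 msp genes did. The 204 include genes under the filter on low values, which all msp genes passed. The share of all genes with that order was not computed, so the order cannot be called particular to msp genes.

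The deposited transcript tables list 2 transcripts for msp-113 and 1 for each of the other 34 members. The longer transcript of msp-113 was at 27.6, 32.6 and 28.7 FPKM and the shorter at 452, 398 and 367 FPKM in the same order of libraries. Their spans differ by 3 bases.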
